A study of Mus musculus with 7 samples.

Results

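Enteric neuron and glia genes were followed as a group of 31 named genes among the 19938 genes measured in mouse ileum and colon. Each member was read from probe sets annotated with a single gene symbol, and where a gene had several, as Stmn3 did, from the probe set with the highest mean over all arrays. All 31 members were found. The enteric nervous system lies in ganglia within the gut wall, where its neurons drive or relax the smooth muscle through acetylcholine, tachykinins, nitric oxide and vasoactive intestinal peptide, and its glia surround the neurons. Both cell types descend from neural crest cells that colonise the gut under the receptors Ret and Ednrb and the transcription factors Sox10 and Hand2. In colitis this network is known to change its peptides and to lose or remodel neurons.

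The RNA came from mice on a C57Bl6/129Sv background, all 3 months old, and 1 array was hybridised per sample. Knockout (KO) mice lacked Atg4b, a protease that prepares LC3-type proteins for the autophagosome membrane, and were set against wild-type (WT) mice. The labels say no more of the allele. Colon after dextran sulfate sodium (DSS), a polymer taken orally for 7 days and followed by 3 days of water that injures the colonic lining, gave 2 KO arrays and 1 WT array. Control ileum gave 1 KO and 1 WT array, and control colon gave 1 KO and 1 WT array. The series examined how the loss of Atg4b changes the intestine during chemical colitis. Nothing in the labels ties an array to an animal of its own. The p-values below thus cover the spread among these 7 arrays, which may be technical. Only KO DSS colon had 2 arrays. In the fits of condition and genotype, a genotype difference that varied between conditions therefore also counted as spread.

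Atg4b had a log2 intensity of 5.39 to 5.45 on the 4 KO arrays and 7.35 to 7.72 on the 3 WT arrays, so the genotypes separated as labelled. Sex markers did not follow the labels: Xist was at 12.16 to 12.55 on the 3 DSS arrays and at 5.19 to 5.52 on the 4 control arrays, and the Y-linked Eif2s3y was at 4.28 to 4.39 on DSS arrays and at 9.39 to 9.77 on control arrays. These markers opposed the labelled sex on all 3 WT arrays. Whether sex labels or whole WT samples were exchanged was not tested, and an exchange of samples would change what each WT DSS and WT control value stands for. The summed intensity of 12 leukocyte markers was 6011.9 and 7004.4 in KO DSS colon and 8113.8 in the array labelled WT DSS colon. In control colon it was 4400.6 in KO and 3479.6 in WT. DSS and measured sex therefore cannot be told apart in any value below, whereas KO and WT arrays of one condition shared their sex pattern. Of the members, 27 lay above the lower quartile of all genes on every array, which was 5.71 to 5.87. Nefm lay below it on all 7 arrays, and Elavl4, Tubb3 and Chat, a defining enzyme of cholinergic neurons, each did on 5, so differences of these 4 genes may be understated. No member or marker was listed at 0.

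Start-site sequences are shown for Tac1, the member that rose after DSS, for Ednrb, the member that was higher in ileum, and for Vip, a neuropeptide gene that did not pass in either comparison. They are RefSeq sequences of GRCm38.p6 from 250 bases before to 50 bases after the annotated start, written 5′ to 3′ on the strand of the gene. Tac1 is at chr6:7554811-7555110 on the plus strand, Ednrb at chr14:103843652-103843951 on the minus strand and Vip at chr10:5638968-5639267 on the plus strand. Capitals mark matches to 4 short motifs searched on both strands: ACAAAG for SoxE factors such as Sox10, TAATTA for homeodomain factors, and the E-boxes CATCTG and CACCTG bound by factors of the Hand2 class.
Tac1: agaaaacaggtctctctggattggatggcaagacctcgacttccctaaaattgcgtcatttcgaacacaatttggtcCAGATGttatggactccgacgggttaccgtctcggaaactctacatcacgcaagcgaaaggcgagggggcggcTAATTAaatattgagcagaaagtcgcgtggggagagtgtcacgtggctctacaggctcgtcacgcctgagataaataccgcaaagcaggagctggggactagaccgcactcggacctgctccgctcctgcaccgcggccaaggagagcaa
Ednrb: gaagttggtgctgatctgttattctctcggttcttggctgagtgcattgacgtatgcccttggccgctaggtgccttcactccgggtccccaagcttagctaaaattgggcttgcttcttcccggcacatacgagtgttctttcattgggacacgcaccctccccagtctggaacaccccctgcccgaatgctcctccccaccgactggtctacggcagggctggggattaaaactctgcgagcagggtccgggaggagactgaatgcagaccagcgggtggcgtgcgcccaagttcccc
Vip: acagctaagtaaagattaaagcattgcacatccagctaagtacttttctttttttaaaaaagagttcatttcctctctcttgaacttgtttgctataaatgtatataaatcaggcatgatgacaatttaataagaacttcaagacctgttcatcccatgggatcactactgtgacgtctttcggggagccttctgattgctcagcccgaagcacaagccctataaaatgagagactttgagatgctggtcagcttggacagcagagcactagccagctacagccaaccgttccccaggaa

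The Tac1 window held TAATTA, which reads the same on both strands, beginning at position -100 from the start, and CATCTG on the other strand, printed as CAGATG, beginning at position -173. None of the 4 motifs was in the Ednrb and Vip windows. RefSeq windows were used for 20 members. TAATTA was present for 3 of these 20 genes (Elavl4, Tac1 and Hand2), against 6.12% of 27025 genes with such a window. CATCTG was present for 7 of the 20 against 19.2%, CACCTG for 3 against 22.6% and ACAAAG for 2 (Syt1 and Stmn3) against 21.0%. These are matches of letters, not sites of binding. Ret, Snap25, Stmn2, Nefl, Nefm, Nefh, Sox10, Calb2, Gap43, Ncam1 and Erbb3 were without a window here.

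After DSS, the peptide gene Tac1 rose and the adhesion gene Ncam1 fell, while the other 29 members did not pass limma at an adjusted p under 0.05. Across all genes 10.6% passed, 7.2% higher and 3.43% lower, so 2 of 31 members is not above that share. The median fitted difference of the members was -0.16 log2 units and 24 of 31 were below 0, against a median of -0.01 and 52.4% below 0 over all genes. In these bulk samples, fewer cells of a type and less RNA per cell cannot be told apart. The DSS and ileum comparisons share both control colon arrays.

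**Figure D1:**
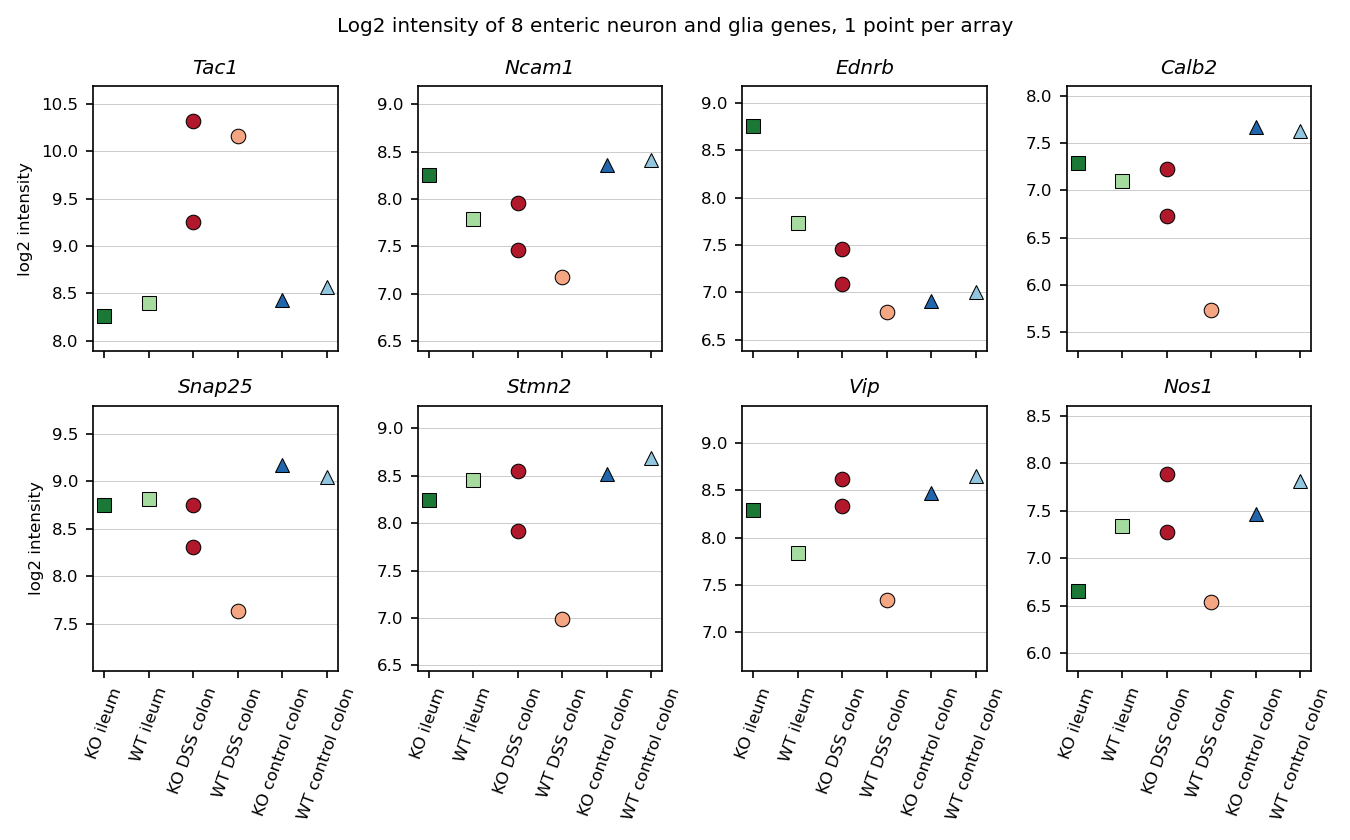
Log2 intensity (vertical axes, scaled per gene) of 8 enteric neuron and glia genes, 1 point per array, with KO left of WT in ileum, DSS colon and control colon. Tac1 is at 9.26 to 10.32 on the DSS arrays and at 8.43 to 8.57 on the control colon arrays, and for Ncam1, Calb2, Snap25, Stmn2, Vip and Nos1 the WT DSS array is the lowest of the colon arrays.

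Among the transmitter enzymes and neuropeptides, Tac1, which encodes substance P and neurokinin A, the excitatory tachykinins of motor neurons, had log2 intensities of 9.26 and 10.32 in KO DSS colon and 10.16 in WT DSS colon, against 8.43 in KO and 8.57 in WT control colon. All 3 DSS arrays lay above both control arrays, as did those of 22.1% of all genes, and the KO DSS pair differed by 1.06. The fitted difference was 1.45 ± 0.29 (SE), 2.73-fold (adjusted p = 0.0299). It was 1.36 without WT DSS colon (adjusted p = 0.137) and 1.46 without either ileum array (0.055). With 1 control colon array left, it was 1.39 without WT control colon and 1.53 without KO control colon. In these fits the direction held but the call did not, while the call was kept when either KO DSS array was left out. Tac1 is also made by enteroendocrine cells of the gut lining. Of 17 enteroendocrine markers 0 rose and 1 fell, Chga, which was 1.99-fold lower (adjusted p = 0.00886), and their summed intensity was 5836.0 to 7732.0 on DSS arrays and 8747.1 to 10200.7 on control colon arrays. Their part in the Tac1 result was not tested.

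The other members of this role did not pass. Vip, the gene of the relaxing peptide VIP, was at 8.33 and 8.62 in KO DSS colon and 7.34 in WT DSS colon, against 8.47 in KO and 8.65 in WT control colon (-0.55 ± 0.28, adjusted p = 0.288). Nos1, the neuronal nitric oxide synthase, was at 7.89 and 7.27 in KO DSS colon and 6.53 in WT DSS colon, against 7.47 in KO and 7.81 in WT control colon. For both genes the WT DSS array was the lowest, and at least 1 KO DSS array lay within the range of the control arrays or above it. Npy (-0.44), Scg2 (-0.34), Gal (-0.05), Chat (0.05) and Cartpt (0.14), which make or accompany other transmitters, completed the role. Cartpt, the gene of the CART peptides of enteric neurons, was at 6.99 and 6.70 in KO DSS colon and 6.77 in WT DSS colon, against 6.65 in KO and 6.73 in WT control colon, and these ranges overlapped.

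The 4 genes of vesicle release, calcium binding and acetylcholine reception had the lowest median of any role, -0.88, with values between -1.18 and -0.77, and none passed. Calb2 encodes calretinin, a calcium-binding protein of cholinergic neurons. It was at 7.22 and 6.73 in KO DSS colon and 5.74 in WT DSS colon, against 7.67 in KO and 7.63 in WT control colon. All DSS arrays lay below both control arrays, and the difference was -1.18 ± 0.30 (adjusted p = 0.0587). Snap25, part of the complex that fuses synaptic vesicles, was at 8.76 and 8.31 in KO DSS colon and 7.63 in WT DSS colon, against 9.17 in KO and 9.05 in WT control colon (-0.94 ± 0.25, adjusted p = 0.0652), again without overlap. The vesicle calcium sensor Syt1 (-0.77) and the nicotinic receptor subunit Chrna3 (-0.82) overlapped the control arrays through KO DSS replicate 1. Both had an adjusted p of 0.195. Without KO DSS replicate 1, 7 members passed, Tac1, Ncam1, Calb2, Snap25, Syt1, Chrna3 and Stmn2, with 17.8% of all genes passing in that fit.

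In the adhesion and neuronal identity role, Ncam1, a cell adhesion molecule of neurons, glia and some other cells, was at 7.96 and 7.46 in KO DSS colon and 7.17 in WT DSS colon, against 8.36 in KO and 8.41 in WT control colon. The groups did not overlap, and the difference was -0.91 ± 0.20, 1.88-fold lower (adjusted p = 0.0371). It was -0.66 without WT control colon (adjusted p = 0.202), -1.22 without KO control colon (0.0961), -0.78 without WT DSS colon (0.178), -0.82 without KO DSS replicate 2 (0.104) and -0.90 without either ileum array (0.0655). The RNA-binding protein Elavl4 (-0.03), the ubiquitin hydrolase Uchl1 (-0.16) and the X-linked adhesion gene L1cam (-0.04), all widely used neuronal markers, did not pass.

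Of the cytoskeletal and axonal genes none passed. Stmn2, a microtubule regulator of growing axons, was at 8.55 and 7.92 in KO DSS colon and 6.99 in WT DSS colon, against 8.52 in KO and 8.69 in WT control colon (-0.85 ± 0.38, adjusted p = 0.221). KO DSS replicate 1 lay between the control arrays and WT DSS colon lay 1.70 below its own control. The neurofilament gene Nefl was at -0.54, and the others, Stmn3, Prph, Nefm, Nefh, Gap43 and Tubb3, lay between -0.22 and 0.03. The glial proteins S100b (-0.14) and Gfap (0.04) did not pass either. Gfap, the glial filament raised in reactive glia, was at 7.07 and 6.33 in KO DSS colon and 6.21 in WT DSS colon, against 6.59 in KO and 6.33 in WT control colon, so that only KO DSS replicate 1 was high.

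Receptors and transcription factors of the crest lineage went both ways and none passed. Ret, the receptor for GDNF-family ligands, was at 8.05 and 8.12 in KO DSS colon and 7.42 in WT DSS colon, against 7.29 in KO and 7.59 in WT control colon (0.39 ± 0.22, adjusted p = 0.324). The KO arrays after DSS were above both control arrays and the WT array was between them. Ednrb, the endothelin receptor, was at 7.46 and 7.08 in KO DSS colon and 6.80 in WT DSS colon, against 6.91 in KO and 7.01 in WT control colon (0.08 ± 0.24). Erbb3, a neuregulin receptor of glia that gut epithelium also makes, was at 10.93 and 10.96 in KO DSS colon and 10.80 in WT DSS colon, against 11.06 in KO and 11.50 in WT control colon (-0.36), without overlap. Sox10, the transcription factor that keeps glia, was at -0.28, and Hand2, a transcription factor of enteric neurons, at -0.01. Over all 31 members, 7 had every DSS array below both control arrays (Snap25, Nefl, Nefm, Calb2, Scg2, Ncam1 and Erbb3), against 18.0% of all genes.

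**Figure D2:**
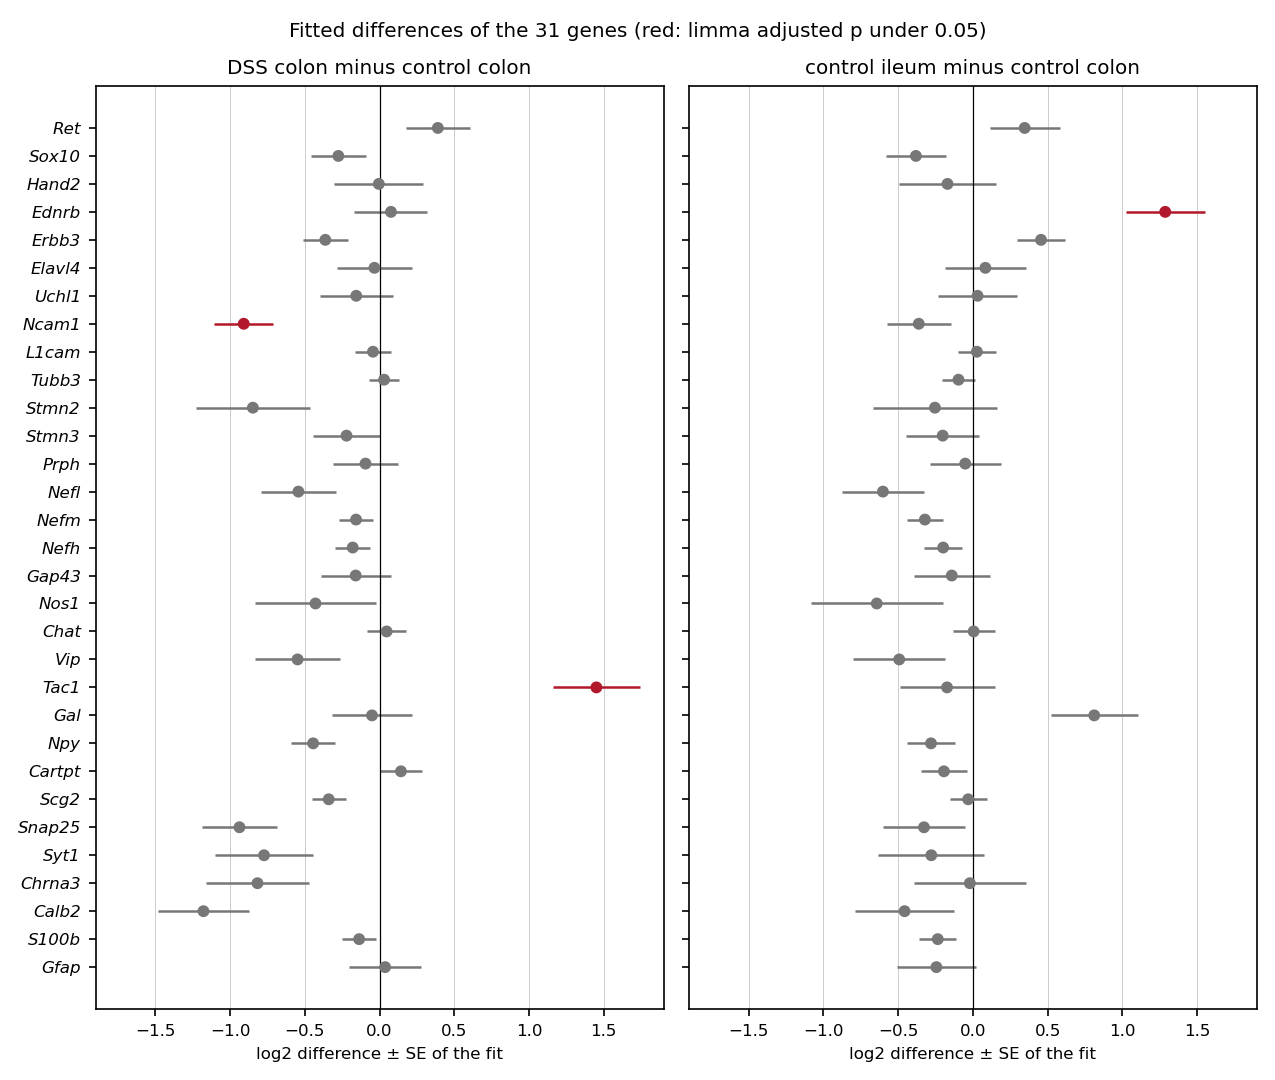
Fitted log2 differences (horizontal axis) with the SE of the limma fit for the 31 genes, in DSS colon minus control colon (left) and control ileum minus control colon (right). Red points passed an adjusted p under 0.05: Tac1 (1.45) and Ncam1 (-0.91) on the left and Ednrb (1.29) on the right.

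The 3 DSS arrays were unlike one another in these genes. Set against the control colon of its own genotype, the WT DSS array had 29 of 31 members below 0 with a median of -0.61, while 52.8% of all genes were below 0. In that pair 8 members were lower by more than 1 log2 unit, against 3.57% of all genes, led by Calb2 at -1.89. KO DSS replicate 2 had 21 members below 0 with a median of -0.10 (51.9% of all genes below 0). KO DSS replicate 1 had 12 below 0 with a median of 0.12 (42.3% of all genes below 0), and no member of it was lower by more than 1 log2 unit (1.16% of all genes). Tac1 was the highest member in each of the 3 pairs, at 1.59 in WT, 1.89 in KO replicate 2 and 0.82 in KO replicate 1, and Calb2 was the lowest in each. These are differences of 1 array and 1 array, with no test. The fitted member median of -0.16 became 0.04 without the WT DSS array.

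**Figure D3:**
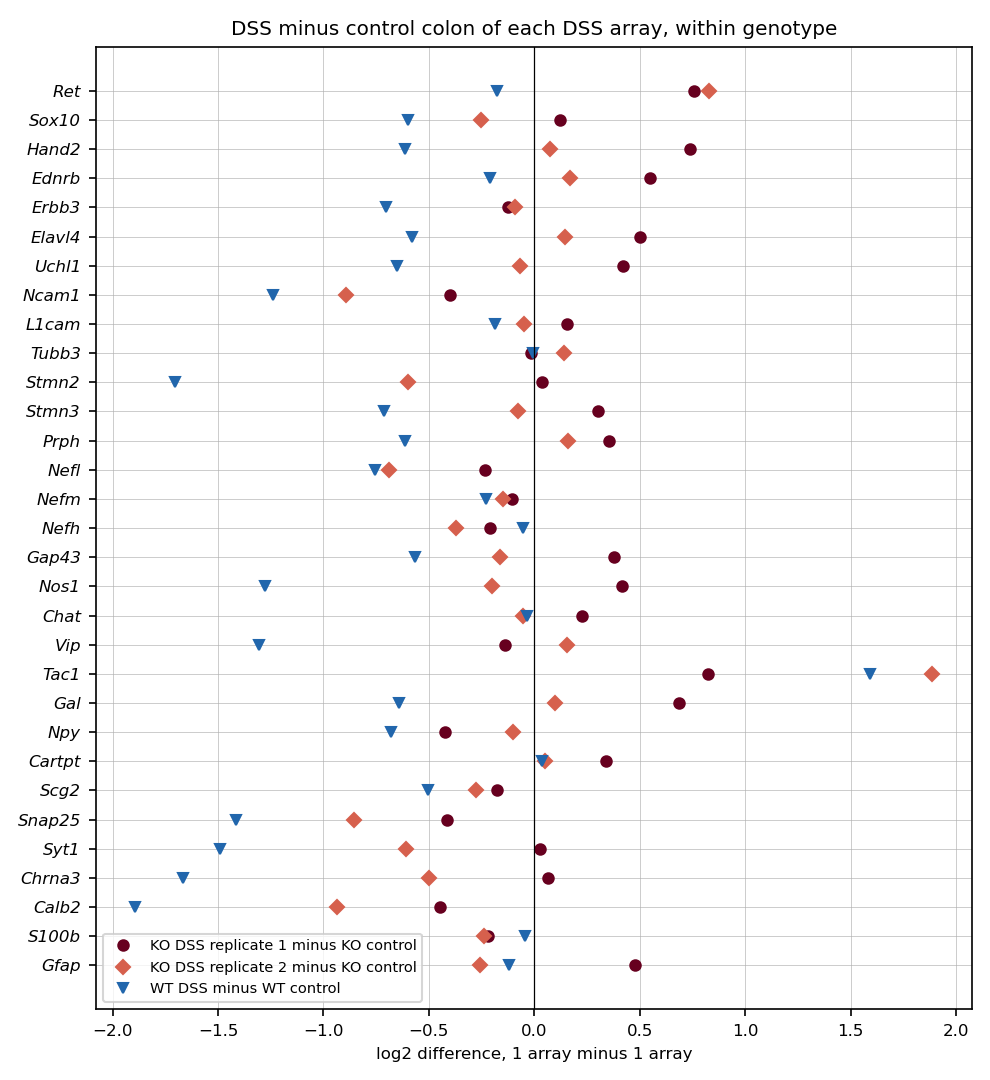
Log2 difference (horizontal axis) of each DSS array minus the control colon array of its own genotype for the 31 genes. The WT DSS points run down to -1.89 for Calb2 and lie left of 0 for 29 genes, the KO points lie left of 0 for 12 genes in replicate 1 and 21 in replicate 2, and Tac1 is right of 0 on all 3 arrays.

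Markers of some other cells of the gut wall moved along the same arrays. Of 14 smooth muscle markers 4 fell after DSS (Acta2, Des, Synm and Casq2, with Des at -1.97 ± 0.43) and all 14 were below 0, with a list median of -1.55. Their summed intensity was 26382.3 in KO DSS replicate 1, 13318.1 in replicate 2 and 8698.0 in WT DSS colon, against 38920.8 in KO and 40004.4 in WT control colon. In 22 of the 31 members the DSS arrays stood in this same order, KO replicate 1 highest and WT lowest. That order was shown by 26.6% of all genes, by 12 of 14 smooth muscle markers and by 10 of 10 fibroblast markers. It was shown by 4 of 6 interstitial cell of Cajal, 6 of 9 adipocyte and 6 of 17 enteroendocrine markers. Only 1 of 12 epithelial and 0 of 12 leukocyte markers had it.

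Among 6 markers of the interstitial cells of Cajal, the pacemaker cells beside the ganglia, Ano1 alone fell (-1.43 ± 0.12), and their sum was 4702.1 to 5475.8 on DSS arrays and 7653.5 to 8623.6 on control colon arrays. Of 12 leukocyte markers 8 rose and 0 fell, with sums of 6011.9 to 8113.8 on DSS arrays and 3479.6 to 4400.6 on control colon arrays. Of 10 fibroblast markers 0 passed, with sums of 6277.5 to 12479.8 on DSS arrays and 10065.9 to 11889.2 on control colon arrays. Of 12 epithelial markers Krt20 alone rose (0.64 ± 0.11), with sums of 60997.8 to 62832.3 and 56883.4 to 59238.1 in the same order. Of 9 adipocyte markers Pck1 alone fell and all 9 were below 0 in the fit. Their sums were 2953.0 and 1105.9 in KO DSS colon and 916.9 in WT DSS colon, against 1728.8 in KO and 6575.0 in WT control colon. Against the control of the same genotype their median was 0.95 in KO replicate 1, -0.17 in KO replicate 2 and -1.99 in WT. The part of these cells in the members' differences was not tested.

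**Figure D4:**
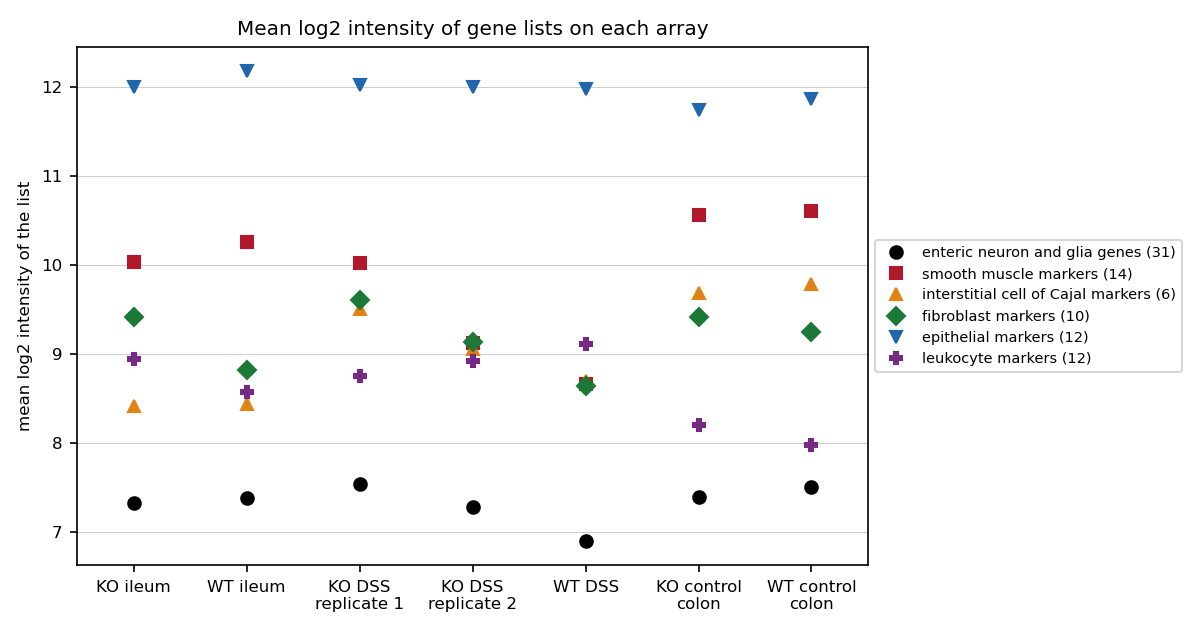
Mean log2 intensity (vertical axis) of 6 gene lists on each of the 7 arrays, with the number of genes of each list in the legend. Levels can be compared between arrays within a list only. The enteric list has its lowest mean, 6.89, on the WT DSS array, where the smooth muscle mean is 8.66, against 7.50 and 10.61 on the WT control colon array.

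Other genes of the enteric network were read from lists beyond the 31 members. Of 34 other neuron genes, 0 rose and 2 fell after DSS, the serotonin receptor Htr4 (-1.20 ± 0.15, adjusted p = 0.00825) and the peptide gene Nmu (-1.64 ± 0.38, adjusted p = 0.0454). Of 23 genes of the vesicle release machinery 2 fell, the synapsin Syn2 (-1.49 ± 0.18) and the granin Chgb (-0.50 ± 0.11), which endocrine cells also make. Of 18 other glia genes Cnp rose (0.85 ± 0.20) and Art3 fell (-1.10 ± 0.20). Lists of neurons, vesicle release and glia had medians of -0.21, -0.18 and -0.24, with 26 of 34, 19 of 23 and 14 of 18 genes below 0, against 52.4% of all genes.

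Signals to crest cells went both ways, while genes listed as transmitter receptors and effectors were lower where they passed. Of 15 genes for signals to crest cells and their receptors, Nrg1, the ligand of Erbb3-containing receptors, rose to 8.37 and 8.60 in KO DSS colon and 8.38 in WT DSS colon, against 6.90 in KO and 7.32 in WT control colon. Its difference was 1.35 ± 0.16 (adjusted p = 0.00617), with no overlap. In the same list Lif rose (0.66 ± 0.15) and the morphogens Bmp4 (-0.73 ± 0.17) and Ihh (-0.53 ± 0.13) fell. Of 14 genes listed as receptors and effectors through which smooth muscle answers nerves, 2 fell. These were the neuropeptide Y receptor Npy1r (-2.27 ± 0.14, adjusted p = 0.000799) and the muscarinic receptor Chrm2 (-2.11 ± 0.33, adjusted p = 0.0153). Which cells of these bulk samples made their RNA was not tested. Tacr1, the substance P receptor, did not pass, with 9.42 and 8.47 in KO DSS colon and 7.91 in WT DSS colon, against 7.14 in KO and 7.49 in WT control colon (1.23 ± 0.38, adjusted p = 0.0954). Tacr1 was singled out after its values were seen, because its ligand is made from Tac1. The other tachykinin receptor of this list, Tacr2, did not pass either.

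In control ileum against control colon, Ednrb was the member that passed, and it was higher in ileum. Across all genes 9.16% passed, 5.94% higher and 3.22% lower, so 1 of 31 is below that share. The members' median difference was -0.19, with 23 of 31 below 0, against -0.02 and 54.1% over all genes. Ednrb was at 8.76 in KO and 7.73 in WT ileum, against 6.91 in KO and 7.01 in WT control colon, a difference of 1.29 ± 0.27, 2.44-fold (adjusted p = 0.0313). Both ileum arrays lay above both colon arrays, as did those of 25.8% of all genes, but the ileum arrays differed from each other by 1.03. The difference was 0.89 without the KO ileum array (adjusted p = 0.207) and 0.88 without KO control colon (0.215). Its ligand gene Edn3, the endothelin that keeps migrating crest cells from differentiating early, was also higher, at 8.76 in KO and 9.44 in WT ileum, against 6.40 in KO and 6.77 in WT control colon (2.52 ± 0.44, adjusted p = 0.0165).

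The 3 next members on the higher side did not pass. Gal, the galanin gene, was at 7.89 in KO and 7.73 in WT ileum, against 6.78 in KO and 7.21 in WT control colon (0.81 ± 0.29, adjusted p = 0.166). Erbb3 was at 11.68 in KO and 11.78 in WT ileum, against 11.06 in KO and 11.50 in WT control colon (0.46 ± 0.16, adjusted p = 0.161). Ret was at 7.80 in KO and 7.77 in WT ileum, against 7.29 in KO and 7.59 in WT control colon (0.35 ± 0.23, adjusted p = 0.457). Together with Ednrb these were the 4 members whose ileum arrays both lay above both colon arrays. The receptors Ednrb, Erbb3 and Ret were thus on this side, of which Erbb3 is also made by gut epithelium. Sox10 was at -0.38 and Hand2 at -0.17.

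On the lower side 16 members had both ileum arrays below both colon arrays, against 28.2% of all genes, and none passed. Nos1 was at 6.66 in KO and 7.34 in WT ileum, against 7.47 in KO and 7.81 in WT control colon (-0.64 ± 0.44, adjusted p = 0.463). Nefl, the light neurofilament chain, was at 6.17 in KO and 6.71 in WT ileum, against 7.14 in KO and 6.95 in WT control colon (-0.60 ± 0.27, adjusted p = 0.266). Vip was at 8.29 in KO and 7.84 in WT ileum, against 8.47 in KO and 8.65 in WT control colon (-0.49 ± 0.31). Calb2 was at 7.28 in KO and 7.10 in WT ileum, against 7.67 in KO and 7.63 in WT control colon (-0.46 ± 0.33). KO minus WT ileum was -0.69 for Nos1, -0.54 for Nefl and 0.45 for Vip, close in size to the tissue difference, and 0.19 for Calb2. Tac1 differed little, at 8.26 in KO and 8.40 in WT ileum, against 8.43 in KO and 8.57 in WT control colon (-0.17).

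Beyond the members, the dynamin Dnm1, which cuts vesicles from the membrane (2.25 ± 0.19), and the homeobox gene Hoxb5 (2.10 ± 0.44) were higher in ileum, and Htr4 (-2.09 ± 0.17), Syn2 (-1.28 ± 0.19) and Chgb (-0.68 ± 0.12) were lower. These were 1 higher and 1 lower of 34 neuron genes and 1 higher and 2 lower of 23 vesicle genes, with 0 of 18 glia genes passing. Npy1r was the only transmitter receptor or effector of 14 to pass (-2.60 ± 0.15). Of the pacemaker cell markers Ano1 (-2.92 ± 0.13) and Thbs4 (-4.89 ± 0.20) were lower, 2 of 6. Of 14 smooth muscle markers 0 passed, with sums of 24780.4 and 28497.6 in ileum and 38920.8 and 40004.4 in control colon. Of 9 adipocyte markers 3 were higher (Adipoq, Plin1 and Lep), with sums of 9068.0 and 11310.8 in ileum, against 1728.8 in KO and 6575.0 in WT control colon. Of 12 leukocyte markers 4 were higher (Csf1r, Itgam, Itgax and Cd3e). Their sums were 6484.6 and 4905.4 in KO and WT ileum, against 4400.6 and 3479.6 in KO and WT control colon. Of 12 epithelial markers 3 were higher (Krt20, Vil1 and Cdx2), with sums of 60720.5 and 67820.3 in ileum, against 56883.4 and 59238.1 in control colon. Of 17 enteroendocrine markers 4 were higher and 2 lower. Those that passed, not sorted by direction, were Chga, Gcg, Cck, Insl5, Nts and Sct. Of 10 fibroblast markers Pi16 alone passed, and it was lower. The fibroblast sums were 12572.9 in KO and 7081.2 in WT ileum, against 11889.2 in KO and 10065.9 in WT control colon. The part of fat, immune, muscle, epithelial and endocrine cells and fibroblasts in the ileum differences of the members was not tested.

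For KO against WT over the 3 conditions, no member passed, and of all genes 0.00502% did, Atg4b alone. At an unadjusted p under 0.05 there was 1 member, Npy (0.40 ± 0.13), against 3.61% of all genes. The highest members were Calb2 (0.56 ± 0.26), Vip (0.54 ± 0.24) and Ednrb (0.47 ± 0.21), and the lowest Tac1 (-0.23 ± 0.25), Erbb3 (-0.10 ± 0.12) and Cartpt (-0.09 ± 0.12), each with an adjusted p of 0.989. Over the conditions together 25 of 31 members were above 0 with a median of 0.11, against -0.01 over all genes, of which 53.4% were below 0. The conditions did not run the same way. In ileum 21 of 31 members were below 0 for KO minus WT with a median of -0.12, from -0.69 for Nos1 to 1.03 for Ednrb (52.7% of all genes below 0). In control colon 23 were below 0 with a median of -0.13, from -0.45 for Erbb3 to 0.27 for Gfap (58.6% of all genes below 0). In DSS colon most were above 0. The fitted median of 0.11 became -0.14 without the WT DSS array.

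Within DSS colon, set as 2 KO arrays against 1 WT array, 30 of 31 members were above 0 with a median of 0.54, against 0.01 over all genes, where 48.0% were below 0. No member and no gene passed the adjusted threshold in limma (0.0% of all genes). At an unadjusted p under 0.05 there were 14 members, against 3.89% of all genes. The highest were Stmn2 (1.25 ± 0.27), Calb2 (1.24 ± 0.23) and Vip (1.14 ± 0.24), and the 3 lowest Tac1 (-0.37 ± 0.41), Nefh (0.01 ± 0.18) and Tubb3 (0.03 ± 0.16), each with an adjusted p of 1.0. Nos1 (1.05) and Chrna3 (1.12) also exceeded 1 log2 unit. The 4 genes of vesicle release, calcium binding and acetylcholine reception lay between 0.90 and 1.24. The glial S100b and Gfap were at 0.05 and 0.49. Over 18 other glia genes the median was 0.32 with 16 above 0, against 0.31 with 29 above 0 over 34 other neuron genes.

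The KO arrays themselves differed in this set. KO replicate 1 was above WT DSS colon in 29 members with a median of 0.71 (54.6% of all genes above 0), and 7 members by more than 1 log2 unit, against 1.87% of all genes. KO replicate 2 was above it in 28 members with a median of 0.29 (46.6% of all genes above 0), and 1 member, Vip at 1.28, by more than 1 log2 unit, against 0.231% of all genes. KO replicate 1 exceeded replicate 2 in 25 of 31 members with a median of 0.37 (57.8% of all genes above 0), so arrays of 1 group were apart by an amount comparable with the fitted genotype difference of 0.54. Without KO replicate 2, which leaves 1 KO array against 1 WT array with the spread taken from the other conditions, 7 members passed (Calb2, Chrna3, Hand2, Nos1, Snap25, Stmn2 and Syt1), with 2.7% of all genes passing. Without KO replicate 1, 0 members passed.

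The test of whether the DSS difference itself depended on genotype called no gene (0.0% of all genes). At an unadjusted p under 0.05 it gave 13 members, against 3.2% of all genes. Labelled sex cannot be told apart from this interaction, although by the markers KO and WT arrays of one condition shared their sex pattern. The members' median of this interaction was 0.66 with 28 of 31 above 0, against 0.03 over all genes with 44.2% below 0. It was led by Nos1 (1.56 ± 0.36), Stmn2 (1.44 ± 0.35) and Chrna3 (1.26 ± 0.34), each with an adjusted p of 1.0. The WT DSS array was the lowest of the 3 DSS arrays in 26 members, against 34.2% of all genes, and the lowest of all 7 arrays in 20, against 17.3%. It was the lowest of the DSS arrays in 12 of 14 smooth muscle, 10 of 10 fibroblast, 5 of 6 pacemaker cell and 6 of 9 adipocyte markers, but in 0 of 12 leukocyte and 2 of 12 epithelial markers. At an unadjusted p under 0.05, KO against WT in DSS colon gave 8 of 14 smooth muscle, 7 of 10 fibroblast and 3 of 6 pacemaker cell markers. That comparison also gave 9 of 34 other neuron, 7 of 23 vesicle release and 4 of 18 other glia genes. The interaction median was 1.71 over 9 adipocyte markers, of which 4 had an unadjusted p under 0.05, and 1.10 over 14 smooth muscle markers, of which 3 did. Whether the muscle, fibroblast and fat content of these arrays had a part in the members' values was not tested.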

How the data were processed

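Total RNA of ileum and colon was prepared with RNeasy kits and labelled with biotin, per the labels' protocols, and run on 7 arrays in 6 groups. The authors deposited 1 linear intensity per probe set and array; the summarisation and normalization steps are not given in the sources used here. Array medians of the deposited intensity lay between 121.4 and 126.45, so values were taken as normalized, and log2 was computed here, although the plan had assumed log2 values in the table. A single symbol was annotated for 21789 of 35512 probe sets, several for 1621 and none here for 12102. The probe set with the highest mean represented each of 19938 genes.

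Linear models of log2 intensity were run in limma 3.58.1 with lmFit and eBayes (R 4.3.3), and p-values were adjusted by Benjamini-Hochberg over all genes with a threshold of 0.05. Condition and genotype gave the DSS, ileum and KO comparisons (3 residual degrees of freedom), and a genotype by DSS term gave KO against WT in DSS colon and the interaction (2 residual degrees of freedom). The precision was set by the number of arrays and by the spread of the values about these fits. The fits were also run on simulated data with independent noise for each gene and array. Those data held no differences of sex or cell content between arrays. Figures were drawn with matplotlib 3.10.9.

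The members and all lists were chosen with earlier results of these data known, so their behaviour is described and no list is tested. Named members are those past the threshold, the 4 largest differences each way for DSS and ileum and the 3 largest each way for genotype. From other lists, called genes are named, apart from the 8 leukocyte markers that rose after DSS. Alternatives were quantile normalization, centring, leaving out dim genes, robust fitting with a variance trend, a mean over a gene's probe sets, labelled sex, a 6-group model, colon arrays only, leaving out each array and, added after seeing the data, KO arrays only.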

Additional observations from a re-analysis of the deposited data

How the results depend on the processing

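The counts of members past the threshold depended on the fit, and the cause was not tested. For DSS the count of 2 was 3 with each array centred (Calb2 joining Tac1 and Ncam1, adjusted p = 0.0462; 11.2% of all genes), 4 of the 20 members tested without dim genes (with Snap25 too; 19.6% of all genes), 6 with labelled sex as a covariate (9.1% of all genes), and 0 with the 6-group model, colon arrays only or KO arrays only, and it ran from 0 to 7 when single arrays were left out. It was 7 without KO DSS replicate 1, 1 without KO DSS replicate 2 (Tac1) and 0 without any other single array. For ileum the count of 1 was 0 with the 6-group model and with KO arrays only, and ran from 0 to 2 when single arrays were left out, with Gal joining Ednrb without KO DSS replicate 1. For KO against WT it was 0 in each fit run, and within DSS colon it was 0 except without KO DSS replicate 2, so that it ran from 0 to 7. Labelled sex could not be estimated in that comparison, because beside condition and genotype it coincided with the genotype by DSS term. As a covariate, labelled sex thus gave the same DSS median, -0.23, and the same Tac1 difference, 1.47, as the 6-group model. It does not adjust for the sex the markers show.

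Medians over the members moved by less than 0.285, the SD of the member median between the KO DSS arrays, in each fit run. That SD comes from 2 arrays and is larger than the fitted medians of -0.16 for DSS, -0.19 for ileum and 0.11 for KO against WT. Changes of sign therefore fall within it. With single arrays left out the medians ran from -0.42 to 0.04 for DSS and from -0.31 to 0.02 for ileum. For KO against WT they ran from -0.14 to 0.24, and within DSS colon from 0.29 to 0.71. With KO arrays only the DSS median was 0.05, and Tac1 was 1.36 (adjusted p = 0.342) and Ncam1 -0.65 (adjusted p = 0.376). Small differences that had not passed turned sign. With single arrays left out, Ednrb for DSS ran from -0.37 to 0.44 (-0.37 without KO control colon, -0.02 without KO DSS replicate 1), Vip for ileum from -1.002 to 0.016 (the last without WT control colon) and Ret for ileum from -0.002 (without KO control colon) to 0.69. For KO against WT, Cartpt ran from -0.19 to 0.0057, the last without either ileum array and with colon arrays only, and Erbb3 from -0.27 to 0.044, the last without either control colon. Within DSS colon, Tac1 ran from -0.90 to 0.16 and Nefh from -0.074 to 0.085, with Tac1 at the upper and Nefh at the lower end without KO DSS replicate 1, and Tubb3 from -0.047 (without KO DSS replicate 2) to 0.11. Nefh was also -0.012 under quantile normalization and -0.010 under centring. For DSS, Tac1 and Ncam1 kept their direction in each fit run, as did Ednrb for ileum. Over all genes, the DSS split of 1436 higher and 684 lower was 1265 and 983 under quantile normalization, and the 2120 calls were 297 with the 6-group model and 22 with KO arrays only. Between 183 and 3549 genes passed when single arrays were left out. No paired analysis was possible because only KO DSS colon has numbered replicates and the other groups hold 1 array each.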
